A study of Mus musculus with 18 samples.

Results

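The genes described here were those whose myoblast levels lay on opposite sides of the control in the 2 edited C2C12 clones of this study. They were chosen from the measured values: counts were scaled to a library total of 1000000 (CPM), averaged over the 3 libraries of a group, and compared after adding 0.1. A gene was a member when its highest myoblast group mean reached 5 CPM and it was at least 2-fold above control in one clone and at most 0.5-fold of control in the other. Of 55450 genes in the table, 11473 reached the level and 108 were members. In 57 of them the overexpressor was higher and the knockout lower than control, which is 0.497% of the genes at that level, and in 51 (0.445%) the overexpressor was lower and the knockout higher. For comparison, 204 genes were at least 2-fold higher in both clones and 280 at least 2-fold lower in both.

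C2C12 is a mouse myoblast line that proliferates in serum-rich medium and fuses into multinucleated myotubes when serum is reduced. Polyadenylated RNA was sequenced from 3 lines as myoblasts in growth medium (with fetal bovine serum) and as myotubes on day 3 in differentiation medium (with horse serum), with 3 libraries (A, B and C) for each of the 6 groups. The control (px) was a sorted EGFP-positive population that had received the Cas9 vector pX458 alone; the labels call clone 2-4 the Dlk1-Dio3 overexpressor and clone 2-7 the Dlk1-Dio3 knockout. Both clones received 2 Cas9 guide constructs against the regulatory region just upstream of Meg3 and were grown from single cells. Each genotype was therefore 1 clone, set against a population, so genotype and clone cannot be told apart, and replicates of a group share 1 line. The labels do not say how the triplicates were grown, so the p-values measure the spread between these samples only.

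Myoblasts leave the cell cycle when they differentiate, switch on the myogenin program and build sarcomeres, the contractile units of actin, myosin, troponin and their binding proteins. Around them lies a matrix of collagens and small leucine-rich proteoglycans. Dlk1-Dio3 is an imprinted domain whose maternal copy makes the long noncoding RNAs Meg3, Rian and Mirg together with many microRNAs.

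Meg3 had 0 counts in all control and all knockout libraries and 5222 to 7763 counts in each overexpressor library. The deletion therefore could not be checked in the knockout by the level of Meg3, and directions for that clone rest on its label. Rian and Mirg were also raised in the overexpressor, with myoblast means of 232 and 11.2 CPM. Dlk1 had 0 counts in every overexpressor library and Dio3 at most 1. Rtl1 had overexpressor means of 0.0745 CPM in myoblasts and 0.0417 in myotubes, below the knockout (0.172 and 0.598). Control libraries held 0 counts of Rtl1, and overexpressor libraries 2 to 5 in myoblasts and 2 to 4 in myotubes. The label overexpressor was thus borne out for the noncoding RNAs and not for Dlk1 or Dio3. Rtl1 lay above control in the overexpressor, but near the floor and below the knockout. Libraries held 41544358 to 79140702 counts, so that a count of 0 allowed at most 3 counts, or 0.0379 to 0.0722 CPM (counting error only). Replicate C of the overexpressor myotubes stood apart from A and B, with a chi-square per degree of freedom of 112 to 118 between their counts against 22.8 between A and B. The myoblast and myotube markers were all present: 8 of 8 were found. Their summed level was 1705 to 1934 CPM in control, 3259 to 4063 in overexpressor and 12167 to 14767 in knockout myoblasts. In myotubes the sum was 12929 to 13070 CPM in control, 22317 to 25624 in overexpressor and 32062.5 to 37050.8 in knockout cells, so both clones lay above control. Epcam, the defining epithelial marker, was at 0 everywhere, and the 4 endothelial and 4 macrophage markers summed to at most 0.607 and 2.34 CPM. In bulk RNA, fewer cells with a transcript and less transcript per cell cannot be told apart.

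In myoblasts the libraries of the 3 lines did not overlap for 107 of the 108 members, and the exception was Fras1, a basement membrane protein. This follows in large part from the choice of members and is given as a description. The members nearest to the threshold were Meis2 and Cadm4 among the overexpressor-higher genes, whose smaller fold was 2.01 in each, and N4bp3 and Lpar4 among the knockout-higher genes, at 2.02 and 2.05. Just outside it lay Mcub and Ptgs1, each at 2.00 when rounded but under the threshold, and Pik3c2b and Irx3, at 1.99 and 1.95.

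**Figure D1:**
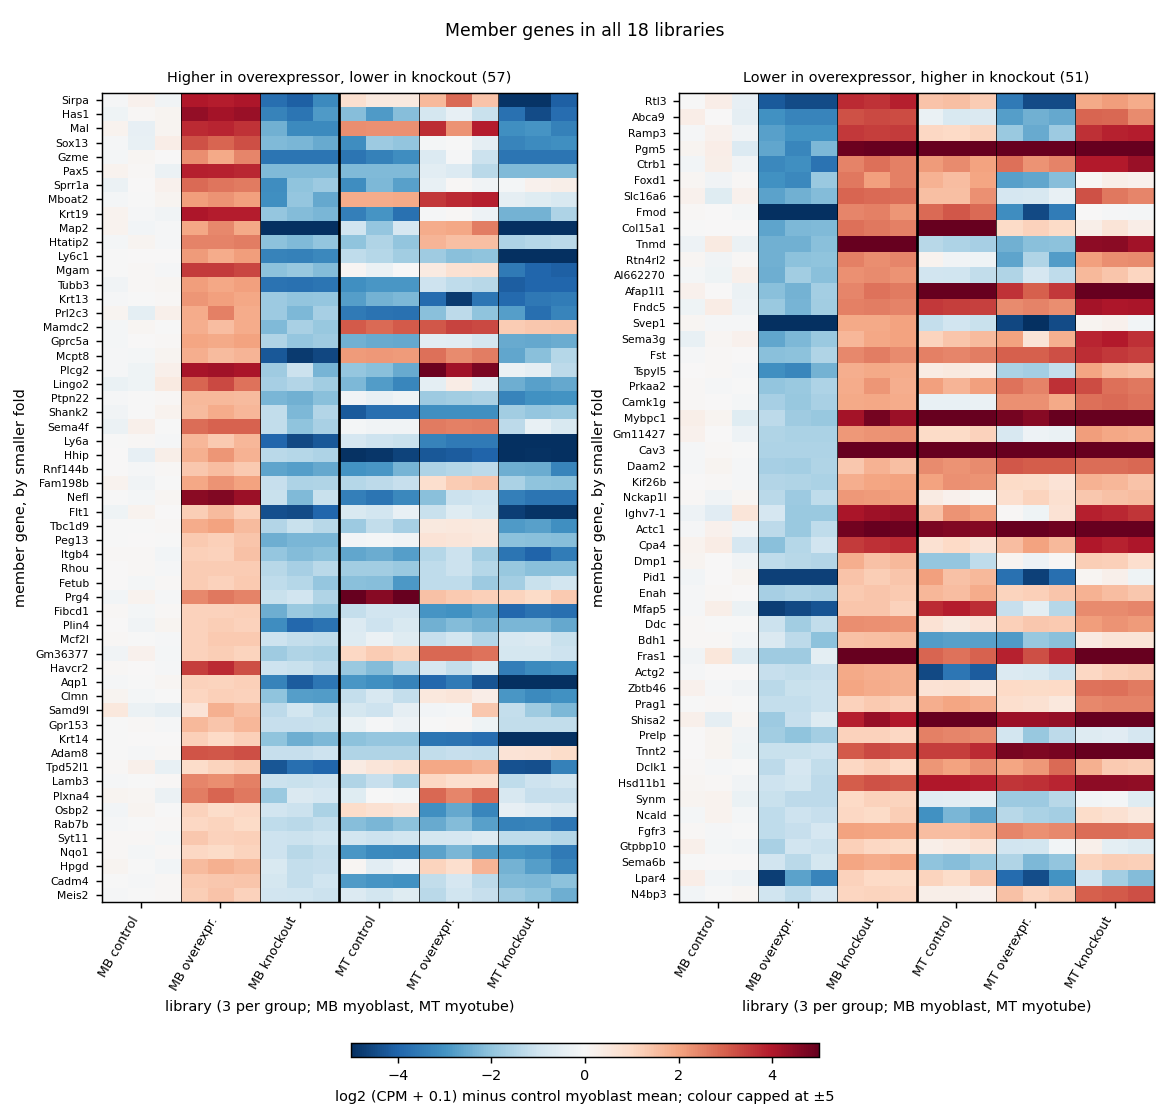
Each row is a member gene and each column a library, coloured by log2 (CPM + 0.1) minus the log2 of the control myoblast mean + 0.1, with the 57 overexpressor-higher genes on the left and the 51 knockout-higher genes on the right. In the myoblast columns the clones have opposite colours by the choice of genes; in the myotube columns, which were not used in the choice, most rows still separate the overexpressor from the knockout.

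Groups by role were drawn up after the values were seen, and their shares among all genes were not counted. Among the genes higher in overexpressor myoblasts, 9 code for proteins best known from immune cells or the cell surface. Such genes were not confined to this direction: Nckap1l, a blood-cell gene, and the immunoglobulin segment Ighv7-1 were knockout-higher. Sirpa, a membrane receptor that binds CD47 (chromosome 2, 129592835 to 129632228), had the largest smaller fold of this direction. Its myoblast level was 2.76, 3.32 and 2.5 CPM in the control libraries, 46.9, 45 and 48.8 CPM in overexpressor cells and 0.114, 0.0759 and 0.225 CPM in the knockout. The overexpressor was thus 15.9-fold above control and the knockout 12.4-fold below it. In myotubes the Sirpa level was 5.08, 4.04 and 4.03 CPM in control, 9.10, 21.2 and 7.82 CPM in overexpressor cells and 0, 0 and 0.0759 CPM in the knockout. No overexpressor library was as low as any control or knockout library, and the log2 difference between the clones in myotubes was 8.90 (SE 0.79, adjusted p = 4.19e-05, edgeR quasi-likelihood test with Benjamini-Hochberg adjustment, as for every adjusted p below). That value rests on few counts in the knockout: it was 8.32 without knockout replicate A or B and 12.62 without replicate C.

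Ly6a (Sca-1), a surface protein of progenitor cells, had with Aqp1 the highest myoblast mean in this direction. Myoblast levels of Ly6a were 175, 187 and 172 CPM in control, 558, 444 and 565 CPM in overexpressor cells and 11.3, 7.69 and 9.41 CPM in the knockout. In myotubes Ly6a was at 98.9, 86.5 and 81.1 CPM in control, 17.4, 15.1 and 15.2 CPM in overexpressor cells and 0.377, 0.315 and 0.285 CPM in the knockout. The knockout remained the lowest line, but the overexpressor now lay below control: its log2 difference was 5.49 against the knockout (SE 0.15, adjusted p = 4.51e-10) and -2.57 against control (SE 0.11, adjusted p = 2.58e-09). Its relative Ly6c1 lies 46.0 kb away on chromosome 15, and its mean myoblast levels were 22.9 CPM in control, 93.8 CPM in overexpressor cells and 2.21 CPM in the knockout. Ly6 genes are similar in sequence, so reads could have been shared between them.

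Plcg2, a phospholipase of immune receptor signalling, had myoblast levels of 0.832, 0.721 and 1.04 CPM in control, 16.9, 17.7 and 16.4 CPM in overexpressor cells and 0.183, 0.361 and 0.0935 CPM in the knockout. In myotubes the overexpressor kept 28.8, 17.6 and 25.0 CPM, with 0.152, 0.124 and 0.0661 CPM in control and 0.688, 0.599 and 0.285 CPM in the knockout. Both clones were above control at that stage, by 7.60 on the log2 scale in the overexpressor (SE 0.35, adjusted p = 1.39e-08) and 2.22 in the knockout (SE 0.43, adjusted p = 0.000913). Gzme and Mcpt8, 2 proteases of cytotoxic lymphocytes and mast cells or basophils that lie 32.4 kb apart on chromosome 14, were at 5.96 and 9.04 CPM in overexpressor and at 1.17 and 2.69 CPM in control myoblasts. Knockout myoblasts were at the floor for both, so the overexpressor was at least 98.3-fold and 149-fold higher than the knockout. Gzme has near-identical neighbours, which makes its counts uncertain.

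A further 9 members were grouped under the neuronal cytoskeleton, the synapse and axon guidance. Genes of similar roles were also knockout-higher, among them Sema3g, Sema6b, Rtn4rl2 and Dclk1, and were placed in other groups. Tubb3, the neuronal class III beta-tubulin (chromosome 8, 123411424 to 123422015), had myoblast levels of 43.3, 50.8 and 52.2 CPM in control, 210, 185 and 200 CPM in overexpressor cells and 3.73, 3.63 and 3.80 CPM in the knockout. Its myotube levels were 5.73, 6.47 and 6.38 CPM in control, 23.9, 20.3 and 18.8 CPM in overexpressor cells and 2.74, 2.99 and 3.02 CPM in the knockout. The order of the lines was the same at both stages with no overlap, and the clones differed in myotubes by a log2 value of 2.73 (SE 0.14, adjusted p = 3.18e-08). The neural and glial marker list without Tubb3 summed to at most 1.90 CPM in any library.

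Map2, a microtubule-associated protein of neurons (chromosome 1, 66175273 to 66442583), had 0 counts in all 6 knockout libraries. In myoblasts the control libraries held 3.61, 2.95 and 3.09 CPM and the overexpressor 12.7, 17.6 and 12.3 CPM, so the overexpressor was at least 234-fold above the knockout. Myotube levels were 1.58, 0.767 and 1.75 CPM in control and 11.8, 12.6 and 19.3 CPM in the overexpressor, at least 285-fold above the knockout (adjusted p = 5.14e-06). Nefl, the neurofilament light chain, was at 28.1 ± 3.55 CPM in overexpressor myoblasts (SD, n = 3), against 1.15 ± 0.0908 in control and 0.379 ± 0.181 in the knockout, and at 0.404 ± 0.182 CPM in overexpressor myotubes. The guidance genes Sema4f and Plxna4 and the adhesion gene Cadm4 were also in this group, with Lingo2, Shank2 and Syt11.

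The 6 members of the keratin and basal-epithelial group were Krt13, Krt14, Krt19, Lamb3, Itgb4 and Sprr1a, which code for keratins, a laminin chain and an integrin of hemidesmosomes, and a protein of the cornified envelope. Krt19 (chromosome 11, 100140810 to 100148665) had myoblast levels of 5.42, 4.55 and 4.22 CPM in control, 79.1, 73.1 and 74.3 CPM in overexpressor cells and 1.17, 0.968 and 0.879 CPM in the knockout. In myotubes it was at 0.356, 0.518 and 0.264 CPM in control, 4.59, 4.92 and 3.97 CPM in overexpressor cells and 0.835, 0.851 and 1.57 CPM in the knockout. The knockout myotubes thus lay between the other lines. The log2 difference in myotubes was 1.93 between the clones (SE 0.28, adjusted p = 0.000117) and 1.56 between the knockout and control (SE 0.33, adjusted p = 0.00119).

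Krt13, Krt19 and Krt14 lie in this order within the type I keratin cluster on chromosome 11, with gaps of 19.2 and 54.5 kb. Mean Krt14 levels were 55 ± 1.00 CPM in control, 120 ± 9.5 CPM in overexpressor and 11.7 ± 1.80 CPM in knockout myoblasts (SD, n = 3). In myotubes Krt14 was at 13.8 ± 0.710, 4.12 ± 0.229 and 0.545 ± 0.254 CPM in control, overexpressor and knockout (SD, n = 3), with a log2 difference of 2.81 between the clones (SE 0.25, adjusted p = 2.37e-06) and of -1.84 between the overexpressor and control (SE 0.21, adjusted p = 8.95e-06). Krt13 did not differ between the clones in myotubes by this test (-0.64, SE 0.42, adjusted p = 0.217). General epithelial markers (Epcam, Krt8, Krt18 and Cdh1) were near 0 and summed to 0.0228 to 0.265 CPM in overexpressor and 0.378 to 0.487 CPM in control myoblasts.

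Lamb3, the laminin beta-3 chain, was at 26.2, 26.8 and 28.3 CPM in control, 148, 135 and 156 CPM in overexpressor and 12.7, 12.5 and 13.2 CPM in knockout myoblasts. In myotubes it was at 9.49, 12.2 and 8.94 CPM in control, 56.1, 48.2 and 48.1 CPM in overexpressor cells and 11.2, 13.1 and 14.1 CPM in the knockout. The overexpressor stood alone at that stage, with a log2 difference of 1.87 from the knockout (SE 0.15, adjusted p = 1.20e-06). On the other strand of the same stretch of chromosome 1 lies Hsd11b1, the enzyme that regenerates active glucocorticoid, which is a member of the opposite direction. Its mean myoblast level was 0.744 CPM in control, 0.297 CPM in overexpressor cells and 7.15 CPM in the knockout. The use of strand in counting is not given in the sources used here, so reads of overlapping or antisense genes cannot be told apart.

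Enzymes, channels and regulators made up much of the rest of this direction. Has1, a hyaluronan synthase, had the largest myoblast ratio of the overexpressor to control among the 10 members with the largest smaller folds (19.7-fold), with levels of 46.1, 39.6 and 43.5 CPM in the overexpressor, 1.79, 2.18 and 2.31 CPM in control and 0.114, 0.0759 and 0.206 CPM in the knockout. Its myotube levels were at most 1.57 CPM in any library, and the clones differed by a log2 value of 4.73 (SE 0.54, adjusted p = 2.15e-05), or 4.15 without knockout replicate B. Mboat2, an acyltransferase of phospholipids, was instead most abundant in myotubes: its mean level was 13.4 ± 0.245 CPM in control, 48.4 ± 5.98 CPM in overexpressor cells and 2.34 ± 0.294 CPM in the knockout (SD, n = 3), a log2 difference between the clones of 4.25 (SE 0.12, adjusted p = 4.51e-10).

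Aqp1, a water channel, was the other abundant member, at 224, 229 and 252 CPM in control, 524, 502 and 540 CPM in overexpressor and 23.3, 13.2 and 18.9 CPM in knockout myoblasts. Myotube levels of Aqp1 were 31.0, 28.2 and 23.3 CPM in control, 15.4, 20.4 and 11.6 CPM in overexpressor cells and 0.0983, 0.126 and 0.171 CPM in the knockout. All 3 lines had less of it as myotubes, and the overexpressor was above the knockout (log2 difference 6.79, SE 0.31, adjusted p = 4.77e-08) and below control (-0.89, SE 0.20, adjusted p = 0.00283). Mal, a raft-associated membrane protein, was at 16.2 ± 1.16 CPM in overexpressor, 1.15 ± 0.262 in control and 0.0709 ± 0.0575 in knockout myoblasts (SD, n = 3).

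The transcription factors of this direction were Sox13, Pax5 and Meis2. Pax5, a regulator of B cell identity, was at 6.74, 6.69 and 6.28 CPM in overexpressor and 0.426, 0.391 and 0.283 CPM in control myoblasts, and had 0 counts in all 6 knockout libraries. The overexpressor was at least 108-fold above the knockout in myoblasts; in myotubes Pax5 was too low for the test, with 6 to 15 counts in each overexpressor library and 0 in all others. Sox13 was at 11.2 ± 1.37 CPM in overexpressor, 1.21 ± 0.319 in control and 0.162 ± 0.0273 in knockout myoblasts (SD, n = 3). Receptors included Flt1, which binds VEGF, at 7.57 ± 1.19 CPM in overexpressor, 2.93 ± 0.391 in control and 0.0591 ± 0.0301 in knockout myoblasts (SD, n = 3), and in myotubes at least 30.8-fold higher in the overexpressor than in the knockout. Peg13, an imprinted long noncoding RNA within the Trappc9 gene, was at 55.2 ± 4.14, 22.5 ± 0.390 and 4.37 ± 0.298 CPM in overexpressor, control and knockout myoblasts (SD, n = 3); in myotubes the clones differed by a log2 value of 2.60 (SE 0.10, adjusted p = 2.83e-09).

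**Figure D2:**
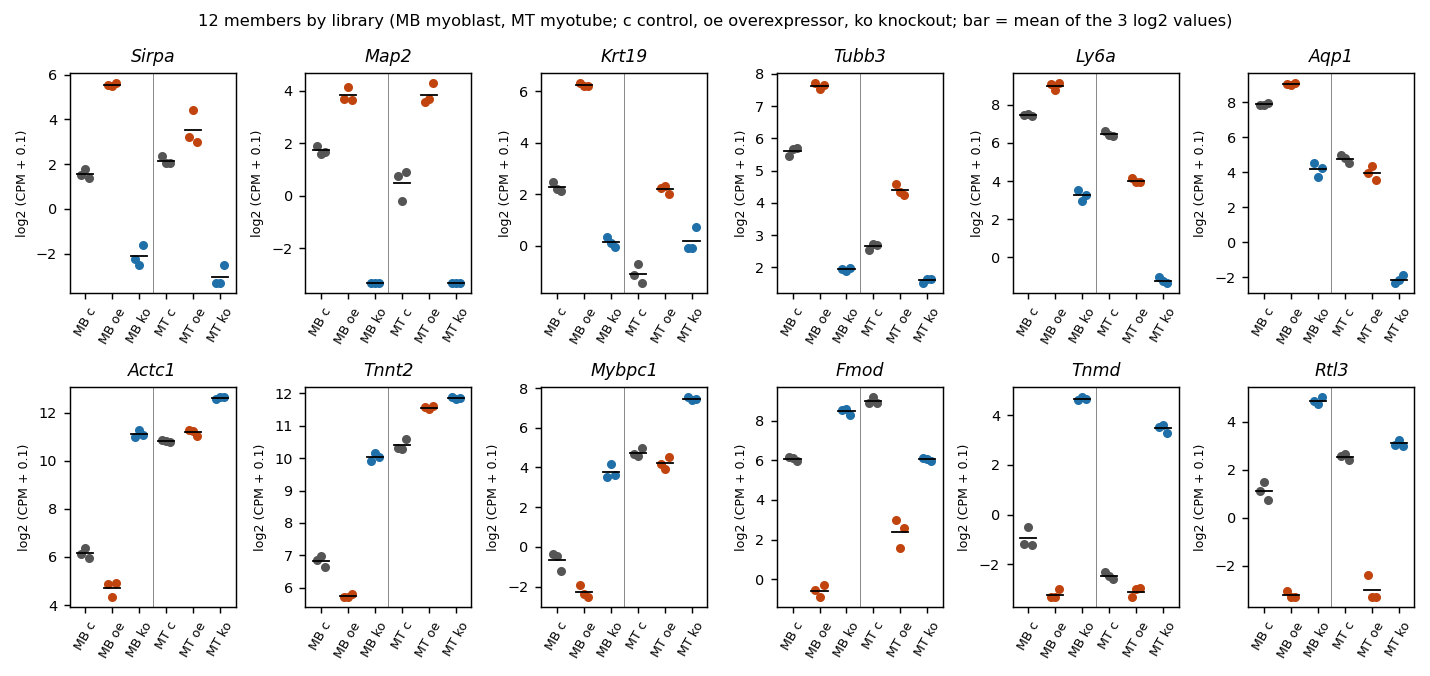
Points are the 3 libraries of each group on a log2 (CPM + 0.1) axis, bars are the means of the log2 values, and the upper and lower rows show members of each direction. Map2 lies at the bottom of its panel, at 0 counts, in every knockout library, while for Actc1, Tnnt2 and Mybpc1 every myotube library of all 3 lines lies above the control and overexpressor myoblasts.

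The genes lower in overexpressor and higher in knockout myoblasts included 7 grouped under sarcomere and muscle membrane: Actc1, Tnnt2, Mybpc1, Cav3, Pgm5, Actg2 and Synm. Of these, Actg2 codes for a smooth muscle actin and is not a sarcomere gene. Of the 54 sarcomere and excitation genes at 5 CPM, 3 were members (Actc1, Tnnt2 and Mybpc1), and all 3 were in this direction. Actc1, the cardiac alpha-actin that is made early in muscle differentiation, had myoblast levels of 69.3, 83.1 and 62.7 CPM in control, 29.3, 19.96 and 30.0 CPM in overexpressor cells and 2019, 2459 and 2129 CPM in the knockout. The knockout was 30.7-fold above and the overexpressor 2.71-fold below control. In myotubes Actc1 was at 1875, 1786 and 1745 CPM in control, 2472, 2405 and 2101 CPM in overexpressor cells and 6068, 6382 and 6404 CPM in the knockout. Every knockout myoblast library held more Actc1 than any control myotube library, and knockout myotubes held the most, with a log2 difference between overexpressor and knockout of -1.55 (SE 0.10, adjusted p = 2.44e-07).

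Tnnt2, the cardiac troponin T of early muscle, was at 117, 127 and 100.1 CPM in control, 52.3, 52.3 and 55.4 CPM in overexpressor and 971, 1146 and 1050.3 CPM in knockout myoblasts. In myotubes both clones were high: control had 1265, 1256 and 1541 CPM, the overexpressor 3055, 2906 and 3092 CPM and the knockout 3770.0, 3663 and 3736 CPM. The clones still differed (log2 -0.42, SE 0.10, adjusted p = 0.00313), and each was above control, by 1.07 in the overexpressor (SE 0.10, adjusted p = 1.39e-06) and 1.49 in the knockout (SE 0.10, adjusted p = 6.52e-08). Mybpc1, the slow myosin-binding protein C, was at 0.690, 0.618 and 0.330 CPM in control, 0.164, 0.0910 and 0.0722 CPM in overexpressor and 11.6, 17.7 and 12.3 CPM in knockout myoblasts. Its myotube levels were 25.4, 24.1 and 31.8 CPM in control, 17.7, 15 and 23.3 CPM in overexpressor cells and 187, 171 and 176 CPM in the knockout. The knockout lay far above both other lines, with a log2 difference between overexpressor and knockout of -3.37 (SE 0.15, adjusted p = 1.35e-08).

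Cav3, the muscle caveolin, had 0 counts in all 3 overexpressor myoblast libraries, 8 to 10 counts in each control library, and 25.5, 30.5 and 24.2 CPM in the knockout, at least 397-fold above the overexpressor. It was at 92.4 ± 16 CPM in overexpressor, 115 ± 4.50 in control and 152 ± 13.9 in knockout myotubes (SD, n = 3), a log2 difference of -0.84 between the clones (SE 0.13, adjusted p = 0.000219). Pgm5 (aciculin), a protein of muscle adhesion sites, had myoblast levels of 1.95, 2.22 and 1.06 CPM in control, 0.205, 0.0910 and 0.289 CPM in overexpressor cells and 54.5, 71.5 and 55.9 CPM in the knockout. In myotubes Pgm5 was at 312, 270 and 314 CPM in overexpressor cells and 300.2, 302 and 300.3 CPM in the knockout, with no difference by the test (log2 -0.13, SE 0.08, adjusted p = 0.21), and at 170, 165 and 175 CPM in control. Actg2, the enteric smooth muscle actin, was at 158 ± 4.16 CPM in control, 69.5 ± 2.22 CPM in overexpressor and 568 ± 24.6 CPM in knockout myoblasts (SD, n = 3). The smooth muscle marker list, which holds none of the members, summed to 4587 to 4717 CPM in control, 1629 to 1923 in the overexpressor and 7855 to 8031 in the knockout. The sum was led by Acta2 (means of 4122, 1528 and 7287 CPM), and Tagln had the same order; Cnn1 was highest in control (31.4, 0.696 and 15.6 CPM) and Smtn in the overexpressor (190, 206 and 183 CPM). The myotube genes outside the rule were high in knockout myoblasts as well, with mean levels of 1217 CPM for Myog, 3367 CPM for Myh3 and 4474 CPM for Acta1, against 113, 50.6 and 82.3 CPM in control and 309, 44.3 and 145 CPM in the overexpressor; their part in the levels of the members was not tested.

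Of the muscle members, the promoters of Actc1, Tnnt2, Cav3 and Mybpc1 were examined for display, and those of Tnnt2, Cav3 and Mybpc1 are shown because they hold an E-box of the form CAGCTG, the core bound by MyoD and myogenin with their E-protein partners. They are the 250 bases upstream of the RefSeq start (GRCm38.p6), 5′ to 3′ on the strand of the gene, with CAGCTG and CACCTG in capitals. The windows are chr1:135836084-135836333 on the plus strand for Tnnt2, chr6:112459255-112459504 on the plus strand for Cav3 and chr10:88605153-88605402 on the minus strand for Mybpc1.
Tnnt2: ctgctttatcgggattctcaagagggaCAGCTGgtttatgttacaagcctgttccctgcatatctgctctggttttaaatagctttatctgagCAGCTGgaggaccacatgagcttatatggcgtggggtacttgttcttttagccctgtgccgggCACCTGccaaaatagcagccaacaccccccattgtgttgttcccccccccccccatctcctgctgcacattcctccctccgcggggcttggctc
Cav3: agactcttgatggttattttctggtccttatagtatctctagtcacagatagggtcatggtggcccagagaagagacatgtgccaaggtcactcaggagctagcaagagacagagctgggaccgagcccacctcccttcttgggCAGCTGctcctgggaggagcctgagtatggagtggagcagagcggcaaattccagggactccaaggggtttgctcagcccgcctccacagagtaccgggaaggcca
Mybpc1: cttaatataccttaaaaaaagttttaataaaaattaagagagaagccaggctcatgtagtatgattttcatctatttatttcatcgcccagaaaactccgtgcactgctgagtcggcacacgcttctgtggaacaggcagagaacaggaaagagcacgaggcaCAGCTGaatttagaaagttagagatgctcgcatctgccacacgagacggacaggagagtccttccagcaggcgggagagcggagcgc
Tnnt2 holds CAGCTG at 223 and 157 bases and CACCTG at 94 bases before its start, Cav3 holds CAGCTG at 106 bases and Mybpc1 at 87 bases. Neither of these motifs was found in the windows of Actc1, Fmod, Prelp or Tubb3. In RefSeq windows of 300 bases (250 before to 50 after the start), searched on both strands, CAGCTG occurred in 10 of 38 knockout-higher members with an entry (26.3%), in 9 of 44 overexpressor-higher members (20.5%) and in 15.6% of all 20592 promoters. CACCTG occurred in 10.5%, 27.3% and 19.7% in the same order. These are letter matches and do not show binding.

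In the knockout-higher direction, 8 members were grouped under extracellular matrix after the values were seen. Of the 49 genes at 5 CPM on a fixed matrix list, 2 were knockout-higher (Fmod and Col15a1) and 1 overexpressor-higher (Has1). Lamb3 and Prg4, matrix or secreted proteins placed in other groups, were also overexpressor-higher. Fmod, fibromodulin, a small leucine-rich proteoglycan that organises collagen fibrils (chromosome 1, 134037254 to 134048277), was at 71.5, 69.2 and 63.1 CPM in control, 0.575, 0.432 and 0.722 CPM in overexpressor and 368, 390 and 311 CPM in knockout myoblasts. The overexpressor lay 101-fold below and the knockout 5.24-fold above control. In myotubes the control had the most Fmod, with 482, 583 and 483 CPM, against 68.6, 66.0 and 62.9 CPM in the knockout and 7.76, 2.91 and 5.92 CPM in the overexpressor. The log2 differences were -3.70 between overexpressor and knockout (SE 0.31, adjusted p = 3.09e-05), -6.64 between overexpressor and control (SE 0.35, adjusted p = 7.73e-07) and -2.94 between knockout and control (SE 0.29, adjusted p = 3.51e-05).

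Prelp, another leucine-rich proteoglycan, lies 116 kb from Fmod on the other strand. Its myoblast level was 90.2 ± 9.99 CPM in control, 25.8 ± 3.11 CPM in overexpressor cells and 195 ± 8.84 CPM in the knockout, and its myotube level in the same order 488 ± 26.8, 36.0 ± 11.6 and 56.3 ± 5.53 CPM (SD, n = 3). As with Fmod, control myotubes were the highest. The difference between the clones in myotubes (-0.76, SE 0.21, adjusted p = 0.0128) did not pass without knockout replicate B (adjusted p = 0.0536) or without the filter on low counts (adjusted p = 0.0646). Svep1, a large adhesion protein of the matrix, had the lowest ratio to control in overexpressor myoblasts of all members (363-fold lower), with 89.0, 78.6 and 80.0 CPM in control, 0.0822, 0.228 and 0.0722 CPM in overexpressor cells and 304, 308 and 334 CPM in the knockout. In myotubes Svep1 was at 35.8, 42.0 and 38.1 CPM in control, 3.45, 0.758 and 3.57 CPM in overexpressor cells and 90.1, 94.7 and 74.8 CPM in the knockout, with no overlap between lines and a log2 difference between the clones of -5.19 (SE 0.48, adjusted p = 5.47e-05).

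Tnmd, tenomodulin, a marker of tendon cells, was found almost only in the knockout. Its levels there were 24.6, 26.4 and 25.1 CPM in myoblasts and 11.6, 11.98 and 9.69 CPM in myotubes. Overexpressor libraries held 0 to 2 counts, so knockout myoblasts were at least 376-fold and knockout myotubes at least 268-fold above them (adjusted p in myotubes 1.06e-09); control myoblasts held 14 to 30 and control myotubes 4 to 6 counts. Mfap5, a microfibril protein, was at 6.78 ± 1.38 CPM in control, 0.203 ± 0.0382 CPM in overexpressor and 17.0 ± 1.56 CPM in knockout myoblasts (SD, n = 3). Its myotube level was 95.3 ± 8.48 CPM in control, 3.39 ± 1.24 CPM in overexpressor cells and 36.0 ± 1.40 CPM in the knockout (SD, n = 3), a log2 difference between the clones of -3.52 (SE 0.23, adjusted p = 1.68e-06). Fibroblast markers, none of them members, summed to 838 to 903 CPM in control, 45.4 to 48.4 in overexpressor and 412 to 642 in knockout myoblasts. Col1a1 made up most of these sums in control and knockout (means of 835 CPM in control, 10.3 CPM in overexpressor cells and 451 CPM in the knockout). Dcn had another order, at 2.01, 13.4 and 5.57 CPM in the same lines, and Pdgfra was at 32.2, 21.9 and 38.9 CPM. The part of these markers in the result was not tested.

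**Figure D3:**
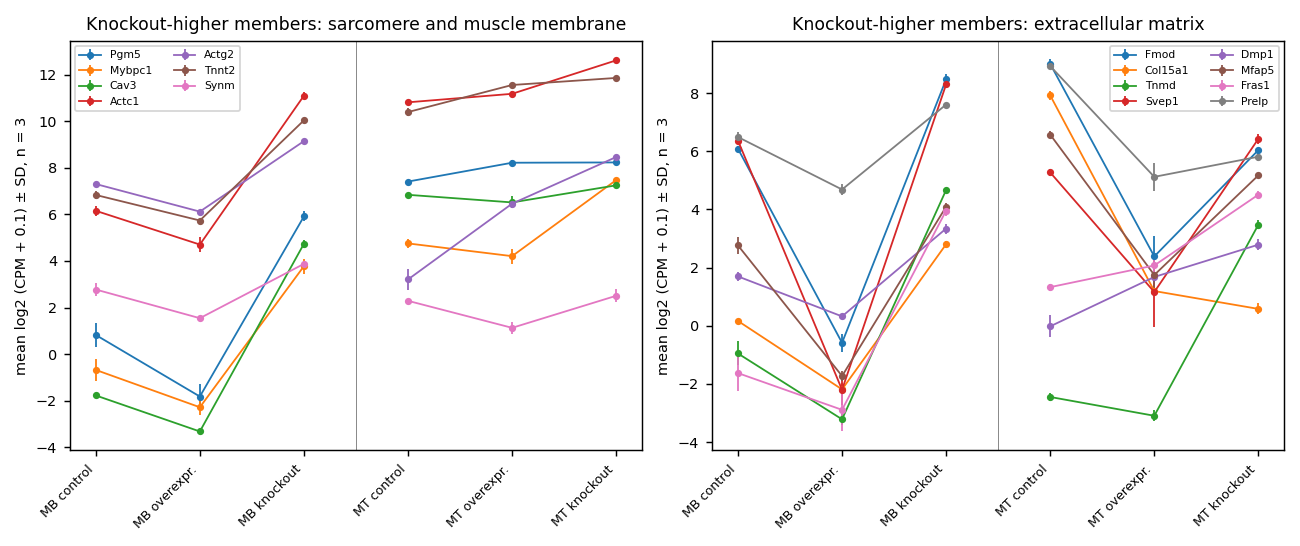
Mean log2 (CPM + 0.1) with SD (n = 3 libraries) for the knockout-higher members grouped under sarcomere and muscle membrane (left, with the smooth muscle actin Actg2) and extracellular matrix (right) in each group; lines join the 3 cell lines within a stage. In myoblasts every gene is lowest in the overexpressor and highest in the knockout by the choice of genes; in myotubes Fmod, Prelp, Mfap5 and Col15a1 are highest in control.

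Signals, receptors and transcription factors completed this direction. Fst, follistatin, which binds myostatin and activins, was at 17.4, 19.1 and 18.4 CPM in control, 4.25, 4.37 and 6.38 CPM in overexpressor and 96.6, 109 and 95.6 CPM in knockout myoblasts. In myotubes Fst was at 105 ± 4.77 CPM in control, 156 ± 15.7 CPM in overexpressor cells and 216 ± 19.5 CPM in the knockout (SD, n = 3). Both clones were above control there, by 0.47 (SE 0.08, adjusted p = 0.00041) and 1.06 (SE 0.08, adjusted p = 3.48e-07) on the log2 scale, and differed from each other by -0.59 (SE 0.08, adjusted p = 0.000119). Fndc5, the precursor of irisin, was at 1.13 ± 0.252, 4.60 ± 1.21 and 26.8 ± 0.941 CPM in overexpressor, control and knockout myoblasts, and at 24.4 ± 1.30, 52.3 ± 2.38 and 80.2 ± 4.21 CPM in the myotubes in the same order (SD, n = 3). That order of the lines held at both stages (log2 difference between the clones in myotubes -1.83, SE 0.09, adjusted p = 1.90e-08).

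Rtl3, a gene derived from a retrotransposon on the X chromosome, had the largest smaller fold of this direction. Its myoblast levels were 2.09, 2.72 and 1.56 CPM in control and 29.3, 26.8 and 32.7 CPM in the knockout, with 0 or 1 count in each overexpressor library, so that the knockout was at least 439-fold above the overexpressor. In myotubes Rtl3 was at 5.90, 6.16 and 5.22 CPM in control, 0.0895, 0 and 0 CPM in overexpressor cells and 8.09, 9.47 and 7.95 CPM in the knockout. The log2 difference between the clones was -8.28 (SE 0.48, adjusted p = 3.39e-07), and it depended on few counts: it was -12.10 without overexpressor replicate A, -7.64 without B and -7.70 without C. Lpar4, a receptor of lysophosphatidic acid, lies 80.0 kb from Rtl3 and was at 6.75 ± 1.59, 0.582 ± 0.407 and 14.0 ± 1.04 CPM in control, overexpressor and knockout myoblasts (SD, n = 3).

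Ramp3, a coreceptor of calcitonin-family receptors, and Abca9, a lipid transporter, were at the floor in overexpressor myoblasts. They were at 8.76 ± 0.312 and 9.28 ± 0.400 CPM in knockout and at 0.688 ± 0.122 and 0.886 ± 0.262 CPM in control myoblasts (SD, n = 3). In myotubes the clones differed by -6.98 for Ramp3 (SE 0.27, adjusted p = 3.16e-09) and -6.63 for Abca9 (SE 0.28, adjusted p = 6.43e-09). Foxd1, a forkhead transcription factor, was at 1.14, 0.906 and 1.11 CPM in control, 0.0411, 0.0228 and 0.217 CPM in overexpressor and 7.14, 4.65 and 6.51 CPM in knockout myoblasts. In myotubes Foxd1 was highest in control, at 3.80 ± 0.536 CPM against 0.11 ± 0.0490 CPM in overexpressor cells and 1.22 ± 0.0980 CPM in the knockout (SD, n = 3). The clones differed by a log2 value of -3.57 (SE 0.28, adjusted p = 9.64e-07).

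Gene lists of several pathways held few members, and of all genes at 5 CPM 0.497% were overexpressor-higher and 0.445% knockout-higher. None of the 20 myogenic regulators, 41 cell cycle genes, 12 interferon-response genes, 49 ion channels or 40 enzymes of xenobiotic metabolism at 5 CPM was a member. At those shares, lists of this size would hold few members or none. Of 4 genes at 5 CPM on a list of keratins, 3 were overexpressor-higher (Krt13, Krt14 and Krt19). That list does not cover all intermediate filament genes. It held neither Nefl, an overexpressor-higher member, nor Synm, a knockout-higher one. The 99 adhesion and guidance genes held 5 overexpressor-higher members (Sema4f, Itgb4, Lamb3, Plxna4 and Cadm4) and 2 knockout-higher ones (Sema3g and Sema6b), and the 352 transcription factor genes held 3 and 1. Of 49 matrix genes, Has1 was overexpressor-higher, and Fmod and Col15a1 were knockout-higher. Of 64 secreted signals, Fst was the only member.

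The myotube libraries did not enter the choice of members, and there the clones could be compared by test. The contrast itself holds no control library, although the control libraries entered the fit's scaling and its estimate of spread. Of the 57 overexpressor-higher members, 46 (80.7%) were higher in overexpressor than in knockout myotubes at an adjusted p under 0.05, where 26.7% of all 17264 genes tested were. By at least 2-fold the number was 40, and the share of all genes 10.1%. Of the 51 knockout-higher members, 45 (88.2%) were higher in knockout myotubes, where 27.3% of all genes were, and 35 by at least 2-fold, with a share of all genes of 7.83%. Both stages came from the same clones. Left out singly, no library took these counts outside 45 to 47 and 44 to 46; without overexpressor replicate C they were 47 and 46. Scaled by library totals in place of TMM factors, all genes had a median log2 difference of 0.11, and the overexpressor was higher in 59.4% in place of 49.4% of the calls, while the counts of members stayed at 46 and 45.

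**Figure D4:**
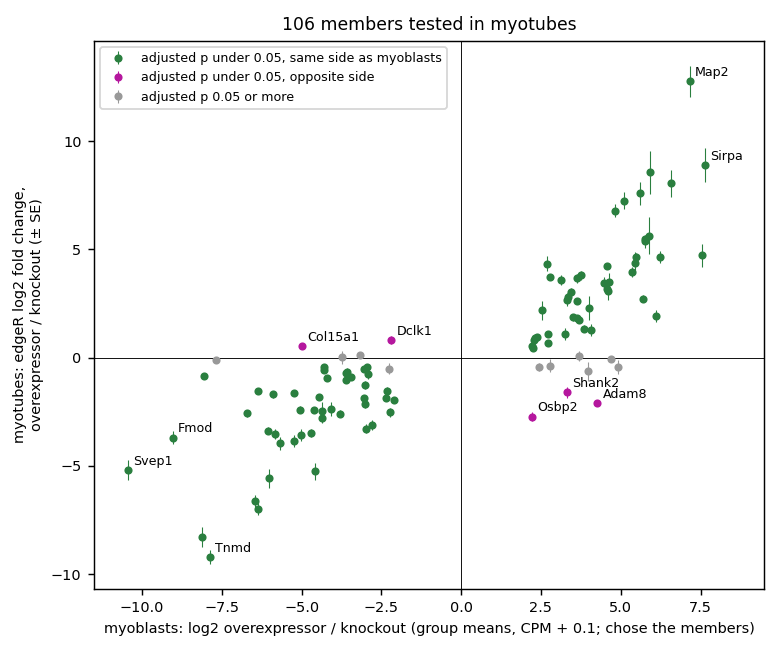
Each point is 1 of the 106 members tested, with the myoblast log2 ratio of overexpressor to knockout (the values that chose the members) on the x axis and the edgeR log2 fold change in myotubes with its SE on the y axis. Of the tested members, 91 lie on the same side at both stages with an adjusted p under 0.05 (green), 5 on the opposite side (magenta) and 10 did not pass (grey).

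By role, with the groups drawn up after the values were seen, the rule's direction was called in myotubes for all 9 immune and surface genes, all 6 enzymes and 8 of 9 neuronal genes of the overexpressor-higher set. It was called for 4 of 6 keratin and basal-epithelial genes and for 3 of 6 secreted proteins. Of all genes tested, 26.7% were called higher in the overexpressor and 27.3% higher in the knockout. The groups are small, and differences between them were not tested. In the knockout-higher set it was called for 6 of 7 sarcomere and muscle membrane genes, 7 of 8 matrix genes, 9 of 10 signals and receptors and all 3 transcription and chromatin genes. The 6 include the smooth muscle actin Actg2. Pax5 and Hhip, a Hedgehog-binding protein, were too low in myotubes to be tested. Members that did not pass were Sprr1a (log2 -0.44), Krt13 (-0.64), Fetub (-0.38), Prg4 (0.09), Plin4 (-0.05) and Mcf2l (-0.42) of the overexpressor-higher set, and Pgm5 (-0.13), Prkaa2 (0.02), Daam2 (0.11) and Gtpbp10 (-0.51) of the other.

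In 5 members the clones differed in myotubes on the side opposite to myoblasts. Adam8, a metalloprotease of the cell surface, was at 9.05, 8.88 and 9.63 CPM in control, 82.9, 79.5 and 86.4 CPM in overexpressor and 4.12, 4.12 and 4.42 CPM in knockout myoblasts. In myotubes its levels were 3.17, 3.19 and 3.17 CPM in control, 3.85, 4.12 and 4.01 CPM in overexpressor cells and 14.8, 15.3 and 17.2 CPM in the knockout, and the groups did not overlap. The log2 difference was -2.10 (SE 0.12, adjusted p = 1.06e-07). Osbp2, an oxysterol-binding protein, was at 7.94 ± 0.599 CPM in overexpressor and 1.64 ± 0.394 in knockout myoblasts, and at 0.415 ± 0.137 and 2.56 ± 0.278 CPM in the myotubes (SD, n = 3), a log2 difference of -2.72 (SE 0.22, adjusted p = 1.29e-06). Control myotubes had more Osbp2 than either clone, at 6.57 ± 0.701 CPM (SD, n = 3). Shank2, a synaptic scaffold, differed by -1.60 (SE 0.26, adjusted p = 0.000317), with levels under 1 CPM in all myotube libraries.

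Col15a1, a basement membrane collagen, was at 0.995, 1.03 and 1.04 CPM in control, 0.0822, 0.137 and 0.144 CPM in overexpressor and 7.46, 6.97 and 6.27 CPM in knockout myoblasts. In myotubes it was at 277, 226 and 227 CPM in control, 2.09, 2.39 and 2.10 CPM in overexpressor cells and 1.26, 1.64 and 1.31 CPM in the knockout. The clones were close to each other and far below control: the log2 difference was 0.52 between them (SE 0.15, adjusted p = 0.00944), -6.88 between overexpressor and control (SE 0.15, adjusted p = 1.26e-11) and -7.41 between knockout and control (SE 0.15, adjusted p = 6.15e-12). Dclk1, a doublecortin-like kinase that binds microtubules, was at 150 ± 5.76, 69.5 ± 12.5 and 319 ± 23.5 CPM in control, overexpressor and knockout myoblasts (SD, n = 3). In overexpressor myotubes Dclk1 was at 594, 675 and 1070.2 CPM, replicate C being the highest, and in the knockout at 508, 368 and 348 CPM, a log2 difference of 0.82 (SE 0.20, adjusted p = 0.00788).

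Against control, the members' positions in myotubes were more mixed; both comparisons use the same control libraries and are given side by side. In overexpressor myotubes, 36 of the 57 overexpressor-higher members were above control (26.7% of all genes were) and 12 below it (26.1%), among them Ly6a, Aqp1, Krt14 and Krt13, while 28 of the 51 knockout-higher members were below and 16 above. The 16 included Tnnt2, Pgm5, Fst, Actg2 and Actc1. With the replicate letter as a block they numbered 15, since Actc1 (log2 0.28, SE 0.10, adjusted p = 0.0345) then had an adjusted p of 0.0701; without overexpressor replicate A its adjusted p was 0.118. For Actg2 the log2 difference was 3.14 (SE 0.23, adjusted p = 2.95e-06). In knockout myotubes, 36 of the 57 overexpressor-higher members were below control (32.4% of all genes were) and 7 above it (32.9%), among them Krt19, Plcg2 and Adam8, and 37 of the 51 knockout-higher members were above and 10 below. Those below were Foxd1, Fmod, Col15a1, Kif26b, Pid1, Mfap5, Prelp, Dclk1, Gtpbp10 and Lpar4. Of these, Dclk1 (-0.71, SE 0.20, adjusted p = 0.0117) and Gtpbp10 (-0.68, SE 0.25, adjusted p = 0.0313) were not called without some single libraries. For Dclk1 these were control replicates A and C and knockout replicates B and C (adjusted p 0.0505 to 0.0705). For Gtpbp10 they were control replicates A, B and C and knockout replicates B and C (adjusted p 0.072 to 0.152). With library totals, the overexpressor was higher in 57.9% in place of 50.6% of all calls against control, and the members above and below control numbered 38 and 11 of the overexpressor-higher set and 17 and 28 of the other. Prg4, lubricin, was far below control in both clones, at 75.9 ± 22.8 CPM in control, 5.47 ± 0.515 CPM in overexpressor and 4.76 ± 0.612 CPM in knockout myotubes (SD, n = 3).

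Set beside the change that control cells made on differentiation, the directions differed. This is a description, since the myoblast values chose the members. In the control line, 32 of the 51 knockout-higher members (62.7%) were at least 2-fold higher in myotubes than in myoblasts, where 6.41% of the genes at 5 CPM were, and 8 were at least 2-fold lower. Of the 57 overexpressor-higher members, 34 (59.6%) were at least 2-fold lower in control myotubes, where 15.9% of all genes were, and 6 higher. Actc1 was 25.1-fold, Tnnt2 11.8-fold, Mybpc1 42.1-fold and Fmod 7.58-fold higher in control myotubes than in control myoblasts, and Tubb3 was 7.77-fold, Krt19 10.1-fold and Aqp1 8.5-fold lower.

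The exceptions among the knockout-higher members included Actg2, which was 16.6-fold lower in control myotubes than in control myoblasts, Tnmd, 2.89-fold lower, and Svep1, 2.13-fold lower. In the opposite set, Prg4 was 34.2-fold higher in control myotubes. In the overexpressor, 35 of the 51 knockout-higher members were at least 2-fold higher as myotubes (7.76% of all genes were) and 41 of the 57 overexpressor-higher members at least 2-fold lower (15.2%). In the knockout these numbers were 16 (3.99%) and 18 (19.9%). For the knockout-higher members the median log2 change was 1.69 in control cells, 2.40 in overexpressor and -0.06 in knockout cells, and of the overexpressor-higher members -1.48, -2.66 and -0.48. All genes at that level had medians of -0.20, -0.15 and -0.30. With TMM factors the median of the knockout-higher members in the knockout was 0.09, and the numbers at least 2-fold higher were 33, 35 and 18.

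**Figure D5:**
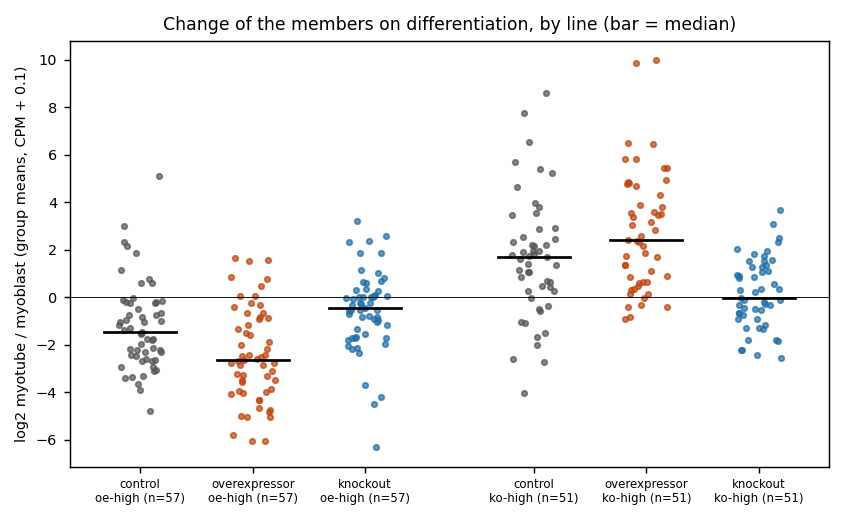
Each point is a member and shows its log2 ratio of myotube to myoblast group means (CPM + 0.1) in the control, overexpressor or knockout line; bars are medians, with the 57 overexpressor-higher genes on the left and the 51 knockout-higher genes on the right. In control and overexpressor the first set lies mostly below and the second mostly above 0, while in the knockout the medians are -0.48 and -0.06.

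Chromosomes 1 and 11 held 13 members each, of 694 and 945 genes at the level of 5 CPM. Chromosomes 6 and 8 held 10 each, of 564 and 638 genes. All chromosomes together held 108 members of 11473 genes. Among members that follow each other along a chromosome, 12 pairs lay within 500 kb, of which 9 held members of the same direction, among them Prelp and Fmod, the 3 keratins, Ly6a and Ly6c1, Mcpt8 and Gzme, Tubb3 and Rhou (232 kb) and Rtl3 and Lpar4. The annotated genes AI662270 and Gm11427 overlap, so their counts may come from the same transcripts. Lamb3 and Hsd11b1, Plin4 and Sema6b (13.3 kb) and Sox13 and Prelp (486 kb) had opposite directions. For each member, the median log2 difference from control of other genes at 5 CPM within 500 kb was taken. The median of these values over the 57 overexpressor-higher members was 0.02 in overexpressor and -0.03 in knockout myoblasts. Over the 50 knockout-higher members with such neighbours it was -0.03 and 0.07, against -0.01 and -0.04 for all genes. Members close together share neighbours. Some stretches lay far from these values, with or against their member. The 5 genes near Ly6a had medians of -0.39 in overexpressor and -2.27 in knockout myoblasts, the 2 near Ddc 0.63 and 1.36, and the 2 near Daam2 -1.02 and -3.61.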

How the data were processed

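The authors deposited raw counts per Ensembl gene for 18 libraries, which were used as deposited; a second deposited table of variance-stabilised values was not used. Per the submitters' processing notes, the tools were STAR 2.7.9a, featureCounts in Subread 2.0.3, FastQC 0.11.7 and DESeq2 1.32.0 with build mm10; which annotation release was used, and whether strand was, is not given in the sources used here. Levels are CPM of library totals, which held 41544358 to 79140702 counts.

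Myotube comparisons used edgeR 4.0.16 (R 4.3.3) on the 9 myotube libraries: TMM factors, the filterByExpr filter (17264 genes left), the quasi-likelihood test and Benjamini-Hochberg adjustment over all of these genes, called at 0.05. Myoblast and differentiation values carry no test. Deviations of same-lettered control and overexpressor myotube libraries from their group means correlated at 0.23 to 0.71, which met a rule for pairing of every pair over 0.1. The differently lettered control B and overexpressor A correlated at 0.60, so these values cannot settle whether the letters pair libraries. The labels do not say what the letters share. The main fit held the group only, and a fit with the letter as a block is given beside it. On simulated counts for the overexpressor against control comparison, 91% of 2-fold and 97% of 4-fold changes were recovered and 18 of 17040 unchanged genes were called. The simulation changed 200 of 17240 genes, all above 1 CPM in control myotubes, whereas 9110 genes were called in the data. These rates therefore do not cover members at lower levels. Where all libraries of a group held at most 3 counts, folds are lower bounds against 3 counts in each library of the group.

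The members and lists were chosen with earlier results of these data known. Named genes were the 10 with the largest smaller fold and the 5 with the highest level per direction, list members, the 5 largest myotube differences, up to 5 reversed ones and neighbouring members; other names were added after their values were seen. Coordinates are from GENCODE and promoter sequences from RefSeq, both of build GRCm38.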

Additional observations from a re-analysis of the deposited data

Results flagged for a closer look

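In 5 members the clones differed in myotubes in the direction opposite to myoblasts; the turn itself, a difference between stages, was not tested. The log2 differences of overexpressor against knockout in myotubes were -1.60 for Shank2, -2.10 for Adam8 and -2.72 for Osbp2, which were higher in overexpressor myoblasts, and 0.52 for Col15a1 and 0.82 for Dclk1, which were higher in knockout myoblasts. By the edgeR test against a 2-fold change, Shank2 (adjusted p = 0.0625), Col15a1 and Dclk1 did not pass.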

How the results depend on the processing

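The number of members followed the thresholds. At 1.5-fold it was 160 and 115, and at 3-fold 23 and 21, for the overexpressor-higher and knockout-higher directions. With a level of 1 CPM or 10 CPM the knockout-higher members numbered 88 or 32. Leaving out single myoblast libraries gave 53 to 61 and 49 to 52. Tested against a 2-fold change in place of no change, as that test requires larger differences, 1281 genes were called between the clones in myotubes, 2577 between overexpressor and control and 3172 between knockout and control. Under it, 34 overexpressor-higher and 33 knockout-higher members were called in the rule's direction between the clones, and 2 overexpressor-higher members against it. No knockout-higher member was called on the opposite side between the clones (0 with edgeR, 0 at an unadjusted p under 0.05, and 2 by the DESeq2 Wald test against no change). Against control, 21 overexpressor-higher members were called above and 8 below in the overexpressor, with 3 knockout-higher members above and 21 below. In the knockout 4 overexpressor-higher members were called above and 25 below, with 24 knockout-higher members above and 6 below.

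Leaving out single myotube libraries gave 7460 to 9326, 8120 to 9527 and 10056 to 12135 genes called in the same order. For the overexpressor against knockout and for the knockout against control the letters did not meet the rule for pairing. Deviations of same-lettered libraries correlated at -0.84 to 0.41 and -0.62 to 0.27. The replicate block nevertheless used the letters in all 9 myotube libraries. With the replicate block the calls between the clones numbered 8470, with 46 and 45 members in the rule's direction, and overexpressor-higher members against it numbered 4 in place of 3. The addition was Mcf2l (adjusted p = 0.0362), which also passed with all 18 libraries (0.0148) and without overexpressor replicate B (0.0333). Against control, the block changed the call of no member but Actc1. Daam2 passed against the rule with library totals (log2 0.22, adjusted p = 0.0124), and Gtpbp10 passed in its direction without overexpressor replicate C (log2 -0.81, adjusted p = 0.0118). Of the members that did not pass between the clones, Plin4 turned to 0.0681 with library totals and lay at -0.102 to 0.0251 without single libraries, and Prkaa2 turned to -0.0388 with the replicate block and lay at -0.383 to 0.277 without single libraries. Depth limits the genes at the floor in a clone, for which folds are lower bounds.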
